A study of Saccharomyces cerevisiae with 3 samples.

Results

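The 890 regions described here were hypersensitive to DNase I in gcn5 deletion and wild-type yeast and were missing from the list of the sba1 deletion. They were found by joining all nuclear sites of the 3 strains that touched or overlapped by at least 1 bp into 4143 union regions. The regions were chosen by presence in the lists: kept were those with a gcn5 deletion site and a wild-type site but no sba1 deletion site, 21.5% of all union regions (95% interval 20.2 to 22.8) and 29.6% of the 3009 with a wild-type site. The 890 regions contained 908 of the 3062 gcn5 deletion sites (29.7%) and 898 of the 3260 wild-type sites (27.5%). The sba1 deletion list was the shortest, with 2439 sites. Its nuclear sites were the widest, with a median of 350 bp against 261 bp (gcn5 deletion) and 247 bp (wild type).

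DNase-seq sequences the ends that DNase I leaves in nuclei, so that stretches with many cuts mark open chromatin. There were 3 libraries, 1 each from the sba1 deletion (genotype sba1-/- in the labels), the gcn5 deletion (gcn5-/-) and the wild type. All were of the Saccharomyces cerevisiae background BY4741 (MATa), and the deletion strains were isolates from a commercial collection. Cells grew in rich medium with 2% glucose at 30 °C to an optical density of 1.0, and the sources used here do not say which DNase I level was sequenced. With 1 library per strain no difference has a replicate check, no test between strains was run, and read depth is unknown. A region missing from a list was not called there by the authors, which does not show that its chromatin was closed.

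SBA1 encodes the yeast p23 protein, a co-chaperone that binds Hsp90 and is also known to act on proteins at DNA. GCN5 encodes the acetyltransferase of the SAGA complex, which acetylates the tails of histone H3 at promoters. In budding yeast, hypersensitive sites lie mostly in the nucleosome-poor stretch just upstream of genes, where transcription factors and the transcription machinery bind. None of SBA1, GCN5, HSP82 and HSC82, the last pair encoding Hsp90, had one of the 890 regions in its promoter window. Of these, SBA1 was the gene with a wild-type promoter site, so the others could not have held one. Listed sites cannot check the deletions, since the coding sequence of SBA1 was 1.84% covered in the sba1 deletion and 0% in the other strains, and that of GCN5 29.4% in the sba1 deletion and 0% in the others.

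The regions were narrow sites of low to middle score. The score is the authors' own value per site, has no stated scale and is used here within a list. Within them, gcn5 deletion sites were 181 bp wide at the median (quartiles 120 and 255) and had a median score of 2.08, above 33.2% of that list. In wild type the median width was 206 bp (quartiles 143 and 297) and the median score 2.12, above 41.7% of that list. In the 1457 regions listed in all 3 strains, the median widths were 468 bp (sba1 deletion), 469 bp (gcn5 deletion) and 427 bp (wild type). Because presence and absence in the lists chose the regions, these levels are a description and carry no test.

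The share of sites that belonged to the 890 regions peaked in the middle of the wild-type list. With that list cut into 10 groups of rising score, the share was 25.2% (20.5 to 30.2) in group 1, 45.7% (40.2 to 51.3) in group 5 and 45.1% (39.6 to 50.7) in group 6. It was 17.5% (13.5 to 22.1) in group 8 and 1.53% in group 9, and none of the 325 best-scored sites in group 10 belonged to them, which allows a share of up to 1.13%. Sites listed in wild type alone made up 52.1% of group 1. In the gcn5 deletion list the share stayed between 37.3% and 51.0% over groups 1 to 6 and was 1.31% in group 9. The highest-scored region of the 890 ranked above 85.0% of the gcn5 deletion list, and the highest in wild type above 82.9% of that list.

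**Figure D1:**
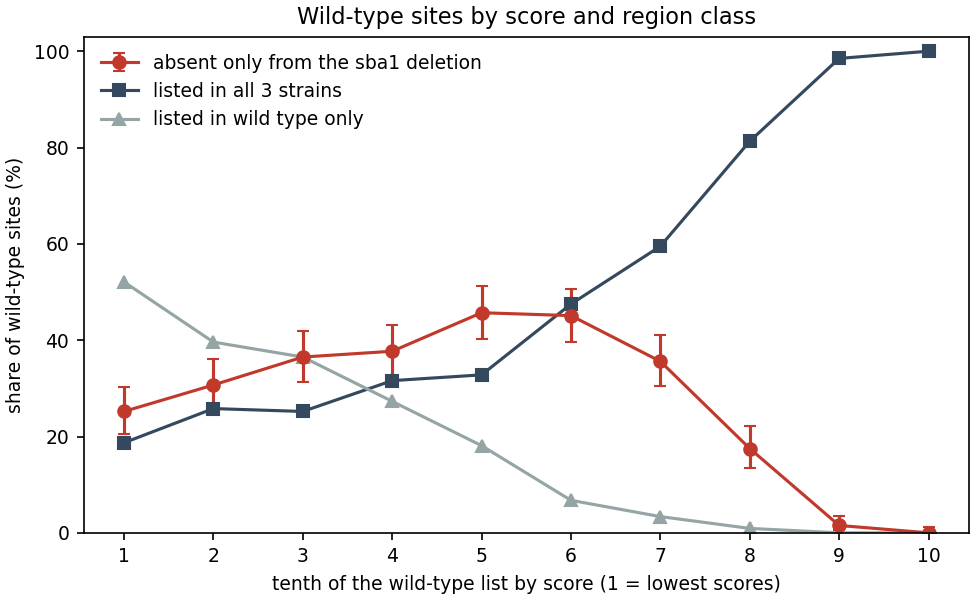
Share of wild-type sites (%) that fell in regions absent only from the sba1 deletion (red, bars are exact 95% binomial intervals), in regions listed in all 3 strains (dark) and in regions listed in wild type only (grey), for 10 groups of the wild-type list by rising score. The red share is highest in groups 5 and 6, at 45.7% and 45.1%, and is 0 in group 10.

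The gcn5 deletion and wild-type sites of a region were compared as pairs. Joining sites that touch or overlap itself brings narrow sites close together, so their distance is a description. In 865 of the 890 regions there was 1 site per strain, and the midpoints of the pair were 15.5 bp apart at the median and within 66.0 bp in 90% of pairs. The gcn5 deletion site was the narrower of the pair in 546 regions (63.1%), the wider in 315 and equal in 4, with a median ratio of gcn5 deletion to wild-type width of 0.876. In 399 pairs (46.1%) the gcn5 deletion site lay wholly within the wild-type site, and in 201 (23.2%) the wild-type site lay within the other. In 1178 regions of all 3 strains with 1 such pair, the midpoints were 18.0 bp apart at the median and the width ratio was 0.979. The rank of the score was lower in the gcn5 deletion in 551 of the 865 regions, by a median of -6.68 points over all pairs, against -0.724 points in regions of all 3 strains. Across the 865 pairs, Spearman's rho was 0.526 for width and 0.458 for score, where the points of each list share a library. Since presence in the lists made the classes, these differences between them carry no test.

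**Figure D2:**
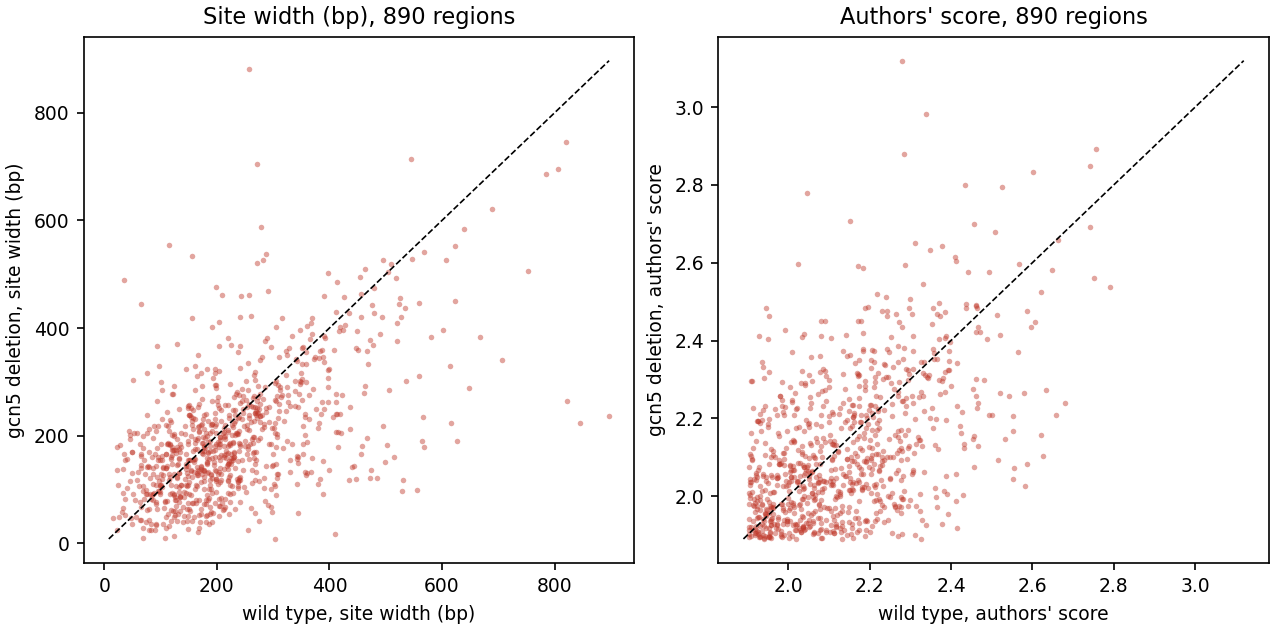
Site width (bp, left) and the authors' score (right) of the 890 regions in the gcn5 deletion (vertical axis) and in wild type (horizontal axis). Each point is 1 region with its highest-scored site in each strain, and the dashed line marks equal values. On the left, more points lie below the line than above it. A few regions lie far above it there, such as that at HOS3 with 882 bp in the gcn5 deletion and 257 bp in wild type. The score has no stated scale, so the line on the right does not compare the strains.

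Most regions had no sba1 deletion site within 500 bp, though the rule itself keeps such a site from touching them. The nearest one lay at a median distance of 1957 bp (quartiles 936 and 3966), and 140 regions (15.7%, 13.4 to 18.3) had one within 500 bp. No region had one within 10 bp, and 3 had one within 50 bp. The closest were within the coding sequence of GPI15 on chromosome XIV (557662 to 557877 in sacCer3, the build of all positions given), 18 bp from an sba1 deletion site, and at HSH49 on chromosome XV (912390 to 913305), 42 bp away. The GPI15 region scored 2.08 in the gcn5 deletion and 1.98 in wild type. Just outside the rule, 7 of the 1457 regions of all 3 strains shared at most 10 bp between sba1 deletion and wild-type sites. Among them were LOS1 with 10 bp and scores of 2.14 in the gcn5 deletion and 2.22 in wild type, and ENP2 with 6 bp and scores of 2.08 in the gcn5 deletion and 1.96 in wild type. The median distance was nearly the same for the 602 regions listed in wild type alone, at 1937 bp. For the 271 listed in the gcn5 deletion alone it was 1841 bp. Distances from genome positions in general were not measured.

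Close to the regions, listed sites covered fewer bases in each strain than over the whole nuclear span. Between 500 and 1000 bp from their centres, sites covered 6.53% of bases in sba1 deletion cells, 7.003% in the gcn5 deletion and 7.84% in wild type. Over the whole nuclear span, sites covered 12.9% in sba1 deletion cells, 10.4% in the gcn5 deletion and 10.1% in wild type. At the same distance from regions of all 3 strains the coverage was 24.5% in sba1 deletion cells, 15.7% in the gcn5 deletion and 14.2% in wild type. Those regions were themselves wider, with a median of 695 bp against 236 bp for the 890. The rule also enters these values, since no sba1 deletion site may touch the 890, while regions of all 3 strains must hold one. How much of the difference it makes was not tested. At 2000 to 3000 bp the surroundings of the 890 regions held 10.8% in sba1 deletion cells, 9.84% in the gcn5 deletion and 10.4% in wild type.

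**Figure D3:**
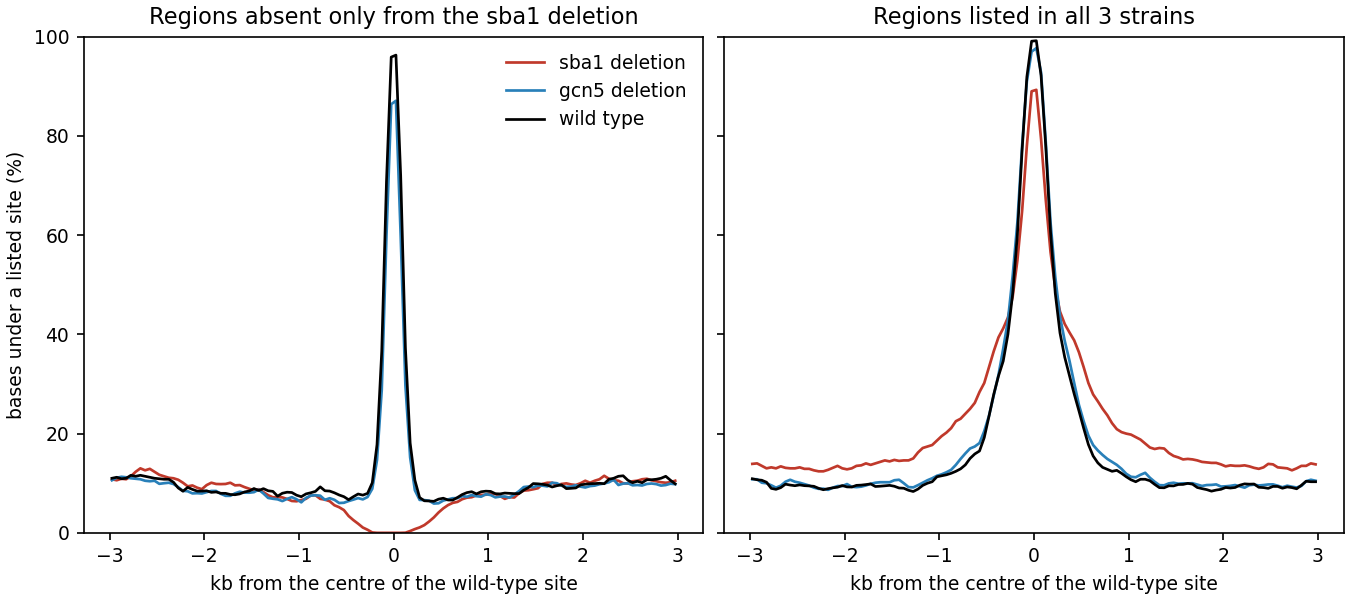
Share of bases under a listed site (%) against distance (kb) from the centre of the wild-type site, for regions absent only from the sba1 deletion (left) and regions listed in all 3 strains (right), in the sba1 deletion (red), the gcn5 deletion (blue) and wild type (black), in bins of 50 bp. On the left the sba1 deletion is at 0 in the centre because of how the regions were chosen, and the 3 strains lie close together from about 1 kb outwards.

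Where the regions lay in the genome was not used to choose them. The wild-type site was centred in a promoter window, defined as the 500 bp before a start codon less any coding sequence, in 408 of 890 regions (45.8%, 42.5 to 49.2). It was centred in coding sequence in 330 (37.1%, 33.9 to 40.3) and elsewhere between genes in 152 (17.1%). Coding sequence was taken as the whole span of a protein-coding gene, introns included. Promoter windows make up 16.0% of the nuclear span and coding sequence 72.9%. Over all 4143 union regions, the 890 included, the promoter share was 40.7% (39.2 to 42.2) and the coding share 41.5% (40.0 to 43.0). Among regions of all 3 strains, over all scores, the promoter share was close to that of the 890, at 47.4% (44.8 to 50.0). Their coding share was lower than that of the 890, at 27.1% (24.8 to 29.5). Among regions listed in wild type alone, 34.2% (30.4 to 38.2) were centred in promoter windows and 50.5% (46.4 to 54.6) in coding sequence. The intervals cover counting over regions only.

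The coding shares were also set side by side among sites of like score, with the wild-type list cut into 4 groups of rising score. In group 3, 34.4% (29.1 to 40.1) of the regions absent only from the sba1 deletion and 24.5% (20.4 to 29.0) of those in all 3 strains were centred in coding sequence. In group 2 the coding shares also differed, at 40.8% (35.5 to 46.2) and 29.4% (22.8 to 36.7), though their intervals overlapped slightly. The intervals overlapped in group 1 too, with 36.7% (30.4 to 43.3) and 35.9% (26.7 to 46.0). In group 4 they overlapped as well, with 23.1% (8.97 to 43.6) of 26 regions and 26.8% (23.7 to 30.1). When the gcn5 deletion and wild-type lists were cut to their better-scored 50% and the sba1 deletion list was left whole, 140 regions were found, of which 62.1% were centred in promoter windows and 27.1% in coding sequence.

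Upstream of genes, the regions sat close to the start codon. Of the 890, 351 (39.4%, 36.2 to 42.7) were centred within 300 bp upstream of the nearest start codon, against 36.8% (34.3 to 39.3) in all 3 strains and 29.9% (26.3 to 33.7) in wild type alone. The fullest 100 bp lay 101 to 200 bp upstream and held 16.2% of the regions. For the 408 in promoter windows the median distance to the start codon was 159 bp (quartiles 87.8 and 249), and for those of all 3 strains 176 bp (quartiles 107 and 290). Of the 330 regions centred in coding sequence, 88 (26.7%, 22.0 to 31.8) lay in the first 250 bp of the gene, 46 in the last 250 bp and 196 (59.4%, 53.9 to 64.7) between. The middle share was 43.5% (38.6 to 48.6) in all 3 strains, 65.5% (59.8 to 70.8) in wild type alone and 70.9% (66.7 to 74.8) in the sba1 deletion alone.

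**Figure D4:**
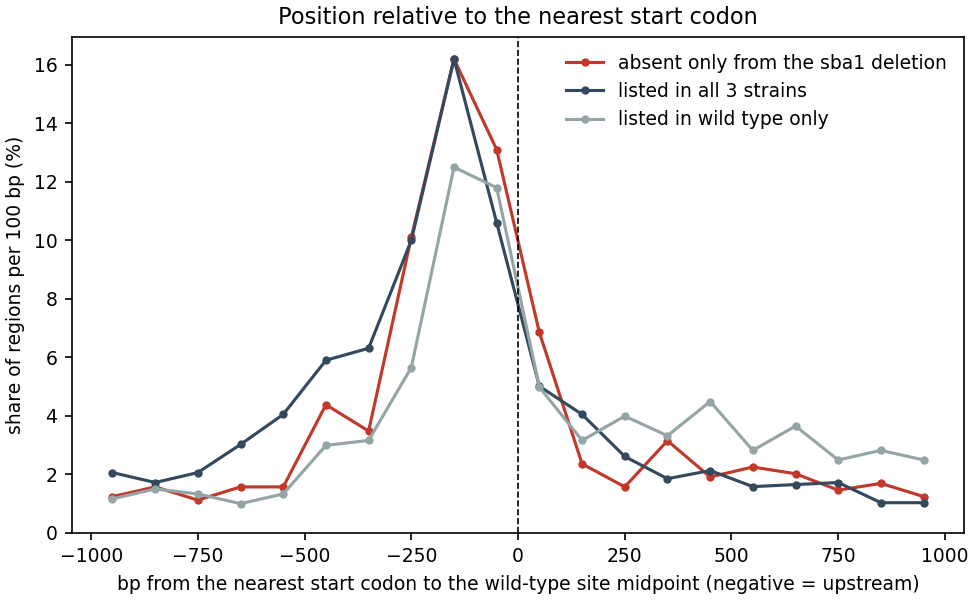
Share of regions (%) per 100 bp by the position of the wild-type site midpoint relative to the nearest start codon (bp, negative upstream), for regions absent only from the sba1 deletion (red), listed in all 3 strains (dark) and listed in wild type only (grey). The red and dark lines both peak at 16.2% between 101 and 200 bp upstream, and beyond 300 bp upstream the dark line lies above the red one.

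A smaller share of the regions than of those in all 3 strains lay between divergent genes. Of the 560 centred outside coding sequence, 163 (29.1%, 25.4 to 33.1) lay between divergent genes, 330 (58.9%, 54.7 to 63.0) between genes in tandem and 67 (12.0%, 9.39 to 14.9) between convergent genes. Divergent gaps make up 32.9% of all space between genes, tandem gaps 51.0% and convergent gaps 16.1%. Over all union regions centred outside coding sequence, 37.4% (35.5 to 39.4) were divergent and 52.4% (50.4 to 54.4) tandem. Regions of all 3 strains were divergent in 42.0% (39.0 to 45.0) and tandem in 47.9% (44.8 to 51.0). Regions listed in wild type alone were divergent in 33.4% (28.1 to 39.1), an interval that overlaps that of the 890, and tandem in 53.4% (47.5 to 59.2). In groups 2 and 3 of wild-type score the divergent shares were 24.1% (18.4 to 30.7) and 29.1% (22.8 to 36.0), against 48.0% (39.0 to 57.1) and 41.2% (35.6 to 46.9) in all 3 strains. In groups 1 and 4 the intervals overlapped, as in group 1 with 35.2% (27.4 to 43.5) and 45.5% (33.1 to 58.2). The gaps that held the regions had a median length of 584 bp, against 822 bp for those in all 3 strains and 571 bp for those in wild type alone. Of the 163 divergent regions, 106 reached into at least 2 promoter windows.

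The regions were spread over all 16 nuclear chromosomes. As a share of regions with a wild-type site they ranged between 16.5% (9.31 to 26.1) on chromosome III and 37.3% (25.0 to 50.9) on chromosome VI, around the 29.6% of the whole genome. Chromosome III, with 14 of 85, was the chromosome whose interval lay below that value. Within 25 kb of a chromosome end there were 28 regions (3.15%), against 5.77% of regions in all 3 strains and 2.16% of those in wild type alone, and none lay in the ribosomal DNA.

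Some lay in rows. Of the 2448 stretches between neighbouring sba1 deletion sites, 585 held at least 1 region. Of these, 380 held exactly 1, and 66 held 3 or more, which together held 232 regions. Stretches with a region were long, with a median of 7.93 kb against 2.45 kb for all, and longer stretches have room for more regions. The longest row was 9 consecutive regions on chromosome XII, between 665667 and 686762, with no other listed region among them. Their sites scored between 1.91 and 2.41 in the gcn5 deletion and between 1.97 and 2.39 in wild type. They lay at LCB5, a sphingoid base kinase gene, at RPS28B and YLR264C-A, within BOP2, at SEC22, which encodes a vesicle fusion protein of traffic between endoplasmic reticulum and Golgi, upstream of and within DCS1, at CMG1, and within YCS4, a condensin subunit gene. The next, on chromosome IV between 570017 and 588440, had 7 regions, at UBC5, MAK21, YDR061W, RRG1, OCA6, DOA4 and FMP16. These rows were chosen after their values were seen. No comparison with chance was made for them.

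PRP22 and NOP12 had the promoter regions with the highest wild-type scores. At PRP22, a splicing helicase gene, the region at chromosome V 178531 to 179014 scored 2.54 in the gcn5 deletion and 2.79 in wild type. At NOP12, a gene of ribosomal RNA maturation, the region at chromosome XV 252447 to 252998 scored 2.89 in the gcn5 deletion and 2.76 in wild type. The PRP22 region was 3523 bp from the nearest sba1 deletion site and the NOP12 region 401 bp. At PET111, which encodes an activator of translation of a mitochondrial messenger, the scores were 2.56 in the gcn5 deletion and 2.75 in wild type. The region upstream of RCK2, a stress kinase gene, at chromosome XII 633716 to 634200, scored 2.85 in the gcn5 deletion and 2.74 in wild type.

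The promoter shared by PRP46, a spliceosome gene, and YPL150W was much narrower in the gcn5 deletion, with 289 bp there and 648 bp in wild type. Next by wild-type score came CHP1, MNN10, JLP2 with REC114, NOT3 and PCA1. MNN10 encodes a subunit of a Golgi mannosyltransferase, and its region at chromosome IV 952567 to 952939 was 338 bp wide in the gcn5 deletion and 343 bp in wild type. NOT3 encodes a subunit of the CCR4-NOT complex of messenger decay, and REC114 acts in meiotic recombination. The PCA1 region scored 2.83 in the gcn5 deletion and 2.60 in wild type and lay 201 bp from an sba1 deletion site.

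By gcn5 deletion score a partly different set came first. Of the 10 promoter regions with the highest score in each list, 4 were in both, so 16 were distinct. The shared ones were NOP12, RCK2, PCA1 and CHP1. The FUR4 region, upstream of the uracil permease gene at chromosome II 280836 to 281152, scored 3.12 in the gcn5 deletion and 2.28 in wild type. HOS3, which encodes a histone deacetylase, had the widest region of all at 1003 bp (chromosome XVI 328589 to 329591). Its site was 882 bp wide with a score of 2.98 in the gcn5 deletion and 257 bp with a score of 2.34 in wild type. The promoter shared by NUP157, a nucleoporin gene, and MAM1, a gene of meiotic kinetochores, scored 2.88 in the gcn5 deletion and 2.28 in wild type. LOT6 had scores of 2.80 in the gcn5 deletion and 2.44 in wild type. DSL1, a tether gene of Golgi-to-endoplasmic reticulum vesicles, had 2.70 in the gcn5 deletion and 2.46 in wild type. NQM1 followed with 2.65 in the gcn5 deletion and 2.31 in wild type.

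The other wide regions were wide in wild type. At RAT1, a nuclear exonuclease gene, the site was 236 bp wide in the gcn5 deletion and 897 bp in wild type. At HSH49, a splicing factor gene, the widths were 265 bp in the gcn5 deletion and 823 bp in wild type, and at ECM9 223 bp in the gcn5 deletion and 845 bp in wild type. At the ribosomal protein gene RPL41A both were wide, 745 bp in the gcn5 deletion and 821 bp in wild type. The HSH49 and ECM9 sites were centred in coding sequence, while that of RAT1 lay upstream and that of RPL41A between convergent genes.

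In coding sequence, the highest wild-type scores were within ORC3, CDC25 and JHD2. The region within ORC3, a subunit gene of the origin recognition complex, which is also in the promoter window of SFI1, scored 2.69 in the gcn5 deletion and 2.74 in wild type. Within CDC25, which encodes the exchange factor of Ras, the scores were 2.27 in the gcn5 deletion and 2.63 in wild type. Within JHD2, a demethylase gene for histone H3, they were 2.48 in the gcn5 deletion and 2.59 in wild type. RIT1 and IST1 had their site near the gene's start, with 2.08 and 2.21 in the gcn5 deletion and 2.59 and 2.55 in wild type.

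The 5 regions farthest from any sba1 deletion site had scores between 1.92 and 2.08 in the gcn5 deletion and between 1.92 and 2.05 in wild type. In the longest stretch without an sba1 deletion site, 42.4 kb on chromosome II between 513213 and 555576, there were 4 regions. The promoter region shared by ADH5, an alcohol dehydrogenase gene, and YBR144C (533384 to 533701) was 20171 bp away from the nearest such site. It scored 1.96 in the gcn5 deletion and 1.99 in wild type. SUP45, the gene of the translation release factor, and RTC2 lay in the same stretch. In the next, 40.6 kb on chromosome XIII, there were 5, among them a site at the start of UBP8, which encodes the SAGA deubiquitinase, 19959 bp from any sba1 deletion site, with scores of 2.08 in the gcn5 deletion and 2.03 in wild type. A weaker one lay downstream of UBP8.

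In all, 519 regions reached a promoter window, and 638 of 6002 protein-coding genes (10.6%) had one there, or 24.6% of the 2595 genes with a wild-type promoter site. Of the 638 genes, 614 had a gcn5 deletion site in the window and 607 had no sba1 deletion site there, while 31 had another sba1 deletion site in the window, among them RIF1, XRN1, TOP1 and FKH1, named after their values were seen. Genes without a standard name made up 7.68% of the 638 and 12.4% of all genes. Coding sequence of the 638 genes was little covered by sites from outside the 890 regions. Such sites touched 77 of them in the sba1 deletion (12.1%, 9.64 to 14.9), 65 in the gcn5 deletion (10.2%, 7.95 to 12.8) and 96 in wild type (15.0%, 12.4 to 18.1). Over all genes the shares were 32.2% in sba1 deletion cells, 24.9% in the gcn5 deletion and 26.7% in wild type. The selection builds in part of this difference, since leaving out the 890 regions removes sites of the 638 genes themselves. With all sites, 40.3% of the 638 were touched in the gcn5 deletion and 48.6% in wild type, against 31.5% and 33.6% of all genes. The 638 all had a wild-type promoter site, unlike most genes. Among the 1957 genes with a wild-type promoter site and no such region, the shares were higher, at 54.5% (gcn5 deletion) and 58.6% (wild type). The rule also keeps sba1 deletion sites off the regions.

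The share of genes with such a region was counted in 21 gene lists and set beside the 24.6% of all genes with a wild-type promoter site. The exact interval of the share held this value in 18 lists, lay above it in 1 and below it in 2, and no set test or adjustment over the lists was made. Some genes are in more than 1 list, and neighbouring genes can share 1 region.

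DNA replication and cell cycle genes were the list above the background, with 18 of 43, or 41.9% (27.0 to 57.9). Without genes whose best wild-type promoter site was in the best-scored 20% of the list, the share was 47.2% (30.4 to 64.5) and its interval held the background of such genes, 35.1%. ORC2, a subunit gene of the origin recognition complex, had a site 133 bp upstream that scored 2.26 in the gcn5 deletion and 2.58 in wild type. RFC4, a clamp loader subunit gene, had scores of 2.26 in the gcn5 deletion and 2.54 in wild type. The cohesin loader genes SCC2 and SCC4 were both included, as were the cohesin and condensin subunit genes SMC1, SMC4 and YCG1, the last 4 of these 5 named after their values were seen. DNA repair genes were near the background, with 11 of 38 (28.9%). DNA2, a nuclease and helicase gene, scored 2.47 in the gcn5 deletion and 2.51 in wild type, and RAD55, MMS4 and RAD61 followed.

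**Figure D5:**
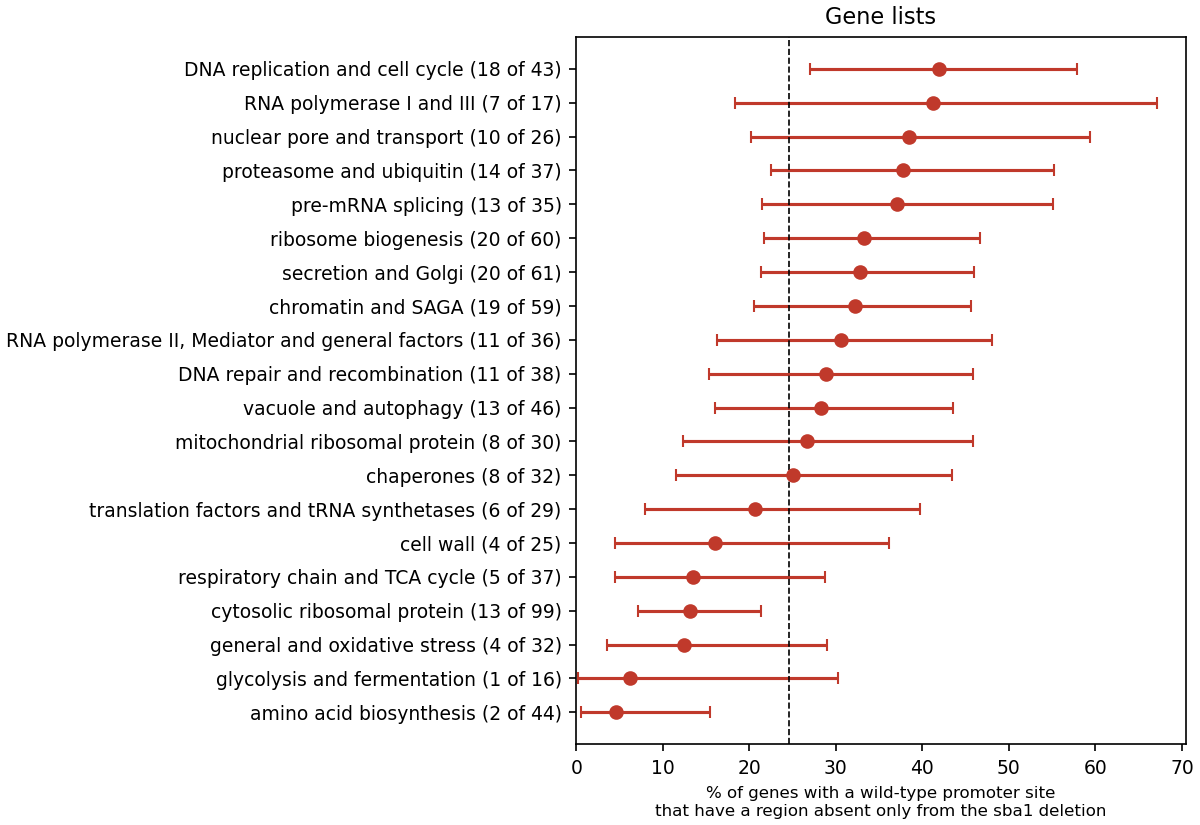
Percent of genes with a wild-type promoter site whose window held a region absent only from the sba1 deletion, for each gene list with at least 10 such genes (points, exact 95% binomial intervals as bars, counts in the labels). The dashed line is the 24.6% of all such genes, which lies outside the intervals of DNA replication and cell cycle, cytosolic ribosomal protein and amino acid biosynthesis genes, of which the first held its background of 35.1% without the best-scored 20% of wild-type sites.

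The intervals of the splicing, ribosome biogenesis, RNA polymerase, proteasome, nuclear pore, secretion and vacuole lists held the background. Splicing genes had 13 of 35 (37.1%, 21.5 to 55.1), with PRP24 at 2.07 in the gcn5 deletion and 2.56 in wild type and PRP21 at 2.26 in the gcn5 deletion and 2.52 in wild type. Ribosome biogenesis genes had 20 of 60 (33.3%, 21.7 to 46.7). MAK21, a large-subunit assembly gene that shares its region with UBC5, scored 2.15 in the gcn5 deletion and 2.53 in wild type, and UTP13 of the small-subunit processome 2.33 in the gcn5 deletion and 2.29 in wild type. RNA polymerase I and III genes had 7 of 17 (41.2%, 18.4 to 67.1), among them RRN10, RPA12, RPC34 and RRN9. The RRN10 and RPA12 sites were centred in coding sequence, and RPC34 had another sba1 deletion site in its window. Proteasome and ubiquitin genes had 14 of 37 (37.8%, 22.5 to 55.2). RPT1 and RPN2, which encode subunits of the regulatory particle, scored 2.02 and 2.22 in the gcn5 deletion and 2.36 and 2.33 in wild type. The UBR1 site was centred 51 bp into the coding sequence.

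Nuclear pore and transport genes had 10 of 26 (38.5%, 20.2 to 59.4). NUP120, of the outer ring of the pore, had a site 53 bp upstream that scored 2.18 in the gcn5 deletion and 2.42 in wild type. The importin genes PSE1 and KAP104 were also included. Secretion and Golgi genes had 20 of 61 (32.8%, 21.3 to 46.0), among them COG6 and COG2, which encode subunits of a Golgi tethering complex, with scores of 2.60 and 2.48 in the gcn5 deletion and 2.57 and 2.36 in wild type. EMP46 followed. Vacuole and autophagy genes had 13 of 46 (28.3%), with ATG3, VPS34, ATG17 and ATG18 first by wild-type score.

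Chromatin and SAGA genes had 19 of 59 (32.2%, 20.6 to 45.6). IES1 and IES2, whose products belong to the INO80 remodeller, scored 2.58 and 2.23 in the gcn5 deletion and 2.49 and 2.42 in wild type. DOT1, a histone methyltransferase gene, had 2.50 in the gcn5 deletion and 2.37 in wild type. SPT15, which encodes the TATA-binding protein, had 2.30 in the gcn5 deletion and 2.34 in wild type. RNA polymerase II, Mediator and general factor genes had 11 of 36 (30.6%), with RPC10, SIN4 and RPO21 beside SPT15. RPO21, the gene of the largest subunit of RNA polymerase II, had its site 52 bp upstream. Chaperone genes were at the background, with 8 of 32 (25.0%, 11.5 to 43.4). They included CCT8 and TCP1, subunits of the chaperonin that folds actin and tubulin, PPT1, a phosphatase gene of the Hsp90 cycle, and ECM10.

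Amino acid biosynthesis and cytosolic ribosomal protein genes were the lists with intervals below the background. Amino acid biosynthesis genes had 2 of 44 (4.55%, 0.555 to 15.5), among them PRO1 of proline synthesis with 2.63 in the gcn5 deletion and 2.35 in wild type. Cytosolic ribosomal protein genes had 13 of 99 (13.1%, 7.18 to 21.4). RPL7B scored 2.32 in the gcn5 deletion and 2.40 in wild type, RPL36A 2.25 in the gcn5 deletion and 2.29 in wild type, and RPS20 2.09 in the gcn5 deletion and 2.19 in wild type. The intervals of the next 4 lists held the background. Glycolysis and fermentation genes had 1 of 16 (6.25%, 0.158 to 30.2), ADH5. General and oxidative stress genes had 4 of 32 (12.5%, 3.51 to 29.0), GRX5, SLN1, STE11 and GRX1, the last with another sba1 deletion site in its window. Respiratory chain and citric acid cycle genes had 5 of 37 (13.5%, 4.54 to 28.8), with COX13 and COX4 of cytochrome oxidase and ATP19 after PET111. Cell wall genes had 4 of 25 (16.0%, 4.54 to 36.1), GAS4, CHS2, ROM1 and GAS2. Neither of the 2 histone genes with a wild-type promoter site had one.

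The strength of the wild-type promoter site differed between lists, and its part in these shares was not tested beyond the following. Among all genes with a wild-type promoter site, the best site was in the best-scored 20% of the list for 31.2%, and few such sites can be in the 890 regions. That share was 40.9% for amino acid biosynthesis, 35.4% for ribosomal protein genes and 16.3% for DNA replication and cell cycle genes. Without the genes whose best site was in those 20%, the background was 35.1% (32.9 to 37.4). The shares were then 47.2% (30.4 to 64.5) for DNA replication and cell cycle, 7.69% (0.946 to 25.1) for amino acid biosynthesis and 20.3% (11.3 to 32.2) for ribosomal protein genes. The intervals of the last pair still lay below the background, while that of the replication and cell cycle list held it. This comparison was chosen after seeing the data.

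Translation factor and transfer RNA synthetase genes had 6 of 29 (20.7%, 7.99 to 39.7), with the initiation factor genes TIF3, HCR1 and TIF1 first and a site 63 bp into the coding sequence of VAS1. Mitochondrial ribosomal protein genes had 8 of 30 (26.7%, 12.3 to 45.9), among them RSM27, MRPL38, MRPL1 and MRPL51.

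Transfer RNA genes were seldom overlapped, small nucleolar RNA genes more often. Of 275 nuclear transfer RNA genes, 8 (2.91%) were overlapped by one of the 890 regions and 133 (48.4%) by a region of all 3 strains. Of the 147 with any wild-type region, the 8 made up 5.44% (2.38 to 10.4), where 29.6% of all wild-type regions belonged to the 890. The latter counts regions instead of genes, and the scores of the sites were not matched. The strongest, on chromosome V 207207 to 207591 over YNCE0013W, scored 2.80 in the gcn5 deletion and 2.52 in wild type. Of 76 small nucleolar RNA genes, 8 (10.5%) were overlapped, or 25.8% (11.9 to 44.6) of the 31 with a wild-type region, an interval that holds the 29.6%. They were SNR56, SNR13, SNR46, SNR34, SNR83, SNR59 and the neighbours SNR128 and SNR190, which share 1 region. The site at SNR59, on chromosome XVI 173565 to 174072, was 505 bp wide in the gcn5 deletion and 504 bp in wild type. These RNAs guide the chemical modification or the cleavage of ribosomal RNA, and the genes were chosen for naming after their overlap was seen.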

How the data were processed

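Each strain has 1 list of hypersensitive sites deposited by the authors, with position, name and score. Per the deposited files the score has no stated scale, and it was used within a list. Reads were aligned with Bowtie 0.12.7 and the build is sacCer3, per the submitters' processing notes. Peak caller, threshold and depth: not given in the sources used here; nothing says that samples were pooled. Groups were taken from the labels' genotype.

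Sites of the 16 nuclear chromosomes were merged and classed as described above, a step tested on simulated lists. Each region was placed by the midpoint of its highest-scored wild-type site, on 1-based positions. Where wild type had no site, the gcn5 deletion site was used, or else the sba1 deletion site. Genes came from the RefSeq table (R64, treated as equal to sacCer3), and strand was read from systematic names. Of 1558 listed names, 1557 matched. Intervals are exact Clopper-Pearson 95% intervals that cover counting only.

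Named were the 10 promoter regions with the highest score in each list, the 5 widest, the 5 farthest from an sba1 deletion site, the 5 highest-scored in coding sequence and up to 4 genes per list; some genes that the rule names are not reported here. The regions, lists and rule were chosen with earlier results of these data known. Motifs were not analysed, as no sequence was used. The work ran in Python 3.11.15 with scipy 1.17.1 for intervals, pandas 2.3.3 and numpy 2.4.6 for tables, and matplotlib 3.10.9 for plots.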

Additional observations from a re-analysis of the deposited data

Results flagged for a closer look

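Of 6 values around the 890 regions, 3 were higher than wild type in the sba1 deletion and lower in the gcn5 deletion, and the other 3 moved the same way in both. These contrasts were not tested, with 1 library per strain. Bases under sites at 1000 to 2000 bp from the region centres made up 8.68% in sba1 deletion cells, 8.22% in the gcn5 deletion and 8.53% in wild type. Relative to wild type that was a difference of 0.149 percentage points for the sba1 deletion and of -0.305 for the gcn5 deletion. At 2000 to 3000 bp the differences from wild type were 0.315 points for the sba1 deletion and -0.605 for the gcn5 deletion. Mean coverage of coding sequence by other sites, in genes with a region in the promoter window, was 3.01% (sba1 deletion), 1.9% (gcn5 deletion) and 2.32% (wild type). There the differences from wild type were 0.694 points for the sba1 deletion and -0.416 for the gcn5 deletion. With sites in the 890 regions counted, the mean was 3.01% (sba1 deletion), 6.04% (gcn5 deletion) and 7.91% (wild type). The higher value in the sba1 deletion thus holds only when those regions are left out. The share of these genes with any other site in coding sequence was lower than in wild type in both, with differences of -2.98 points for the sba1 deletion and -4.86 for the gcn5 deletion. So was coverage at 500 to 1000 bp, with differences of -1.31 points for the sba1 deletion and -0.832 for the gcn5 deletion. The rule keeps sba1 deletion sites off the regions, which can lower their coverage nearby. Genes at least 50% covered by other sites numbered 12 (sba1 deletion), 8 (gcn5 deletion) and 7 (wild type). With all sites they numbered 21 in the gcn5 deletion and 24 in wild type. The sba1 deletion list also covers the most bases over the whole nuclear span, 12.9%, with 10.4% for the gcn5 deletion and 10.1% for wild type.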

How the results depend on the processing

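The number of regions depended most on list length. Against 890, it was 506 with the better-scored 50% of each list, 514 with equal numbers of best-scored sites and 140 with the better-scored 50% of the gcn5 deletion and wild-type lists against the whole sba1 deletion list. It ranged between 639 and 1117 in the other 5 alternatives. In those 3 settings the share centred in promoter windows was 54.2%, 49.4% and 62.1%, against 45.8%, and with windows of 250 bp and 1000 bp it was 34.2% and 51.0%. The coding share was 22.5% and 27.1% when all lists, or the gcn5 deletion and wild-type lists alone, were cut to their better-scored 50%, against 37.1%. Genes with a region in the window numbered 409 with equal lists and 134 in the strictest setting, against 638. These settings take fewer sites by construction. Of 62 values recomputed under other settings, 39 stayed within 1.5 times the count or within the interval of the main value. The 39 include the coding share with windows of 250 bp and 1000 bp, which could not move because the window does not enter it. Leaving out chromosome ends and ribosomal DNA kept 862 regions, and leaving out those within 250 bp of an sba1 deletion site kept 846. Shares could move little in these settings, so the tally does not measure robustness. Without the best-scored 20% of wild-type promoter sites, a setting chosen after seeing the data, 20 gene list shares stayed within their own intervals, but the background rose to 35.1%, against 24.6%. The interval of the DNA replication and cell cycle list, 47.2% (30.4 to 64.5), then held the background, so the call above it was lost. The setting for promoter motifs was not run. No paired analysis was possible because each strain has 1 library. Unknown depth limits every statement on absence.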

Other observations

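Of the 638 genes with a region absent only from the sba1 deletion in the promoter window, 12 had at least 50% of their coding sequence under sba1 deletion sites. That is 1.88% of them (0.976 to 3.26), against 12.0% of all protein-coding genes and 22.7% of genes with a wild-type promoter site and no such region. The rule enters this contrast, since no sba1 deletion site may run from such a region into coding sequence. An sba1 deletion site lay in the promoter window of 4.86% of the 638 genes and 82.6% of the genes without such a region. How much of the contrast the rule makes was not tested. By sites from outside the regions, 8 of the 638 were at least 50% covered in the gcn5 deletion and 7 in wild type. The 12 genes were chosen after the values were seen. LSB5 was covered at 100% in the sba1 deletion, at 91.4% in gcn5 deletion cells and at 90.8% in wild type, so most of its coding sequence was listed in all 3 strains. NRD1, which encodes an RNA-binding protein of transcription termination, was covered at 50.3% in the sba1 deletion and 0% in the other two, and MHR1, a gene of mitochondrial DNA recombination, at 64.5% in the sba1 deletion and 0% in the other two. MET8, a gene of siroheme synthesis, was covered at 77.0% in the sba1 deletion, at 58.5% in gcn5 deletion cells and 14.4% in wild type. ELP6, of the Elongator complex, was covered at 58.0% in the sba1 deletion, at 8.76% in gcn5 deletion cells and 0.973% in wild type. The others were AUA1, YML122C, SCC4, LAS17, VMA13, YKE4 and YJL007C.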
